A study of Mus musculus with 8 samples.

Results

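Tumour necrosis factor (TNF), its relatives and the signalling proteins that lead from their receptors to the transcription factor NF-kB were followed here as 68 genes of the 18193 measured in the series. A gene was a member if its symbol began with Tnfrsf, Tnfsf, Tnfaip, Traf, Birc or Nfkb, or if it was Tnf, Lta, Ltb, Ltbr, Fas, Fasl, Cd40, Cd40lg, Cd70, Rel, Rela or Relb. The members were 13 ligands, 22 receptors, 10 genes of TRAF proteins and their partners, 5 genes of BIR proteins and 4 NF-kB subunits. The others were 6 genes of IkB proteins and a relative, 7 genes whose symbols begin with Tnfaip and 1 antisense RNA. Of the pathway, Nfkb1, Traf3, Chuk and Ripk1 among others were not analysed here.

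RNA of sorted mouse bone marrow cells was measured on 8 Affymetrix arrays. The L-GMP group held 4 arrays of cells sorted from leukaemic mice with the genotype label HoxA9+Meis1 AML, an acute myeloid leukaemia named after a pair of homeobox genes. The GMP group held 4 arrays of granulocyte-macrophage progenitors, a myeloid precursor population, sorted from mice with the genotype label Normal. Strain, age and the way the leukaemia was started are not given in the sources used here, and nothing in the labels ties an array to its own animal, so the p-values rest on the spread between these arrays, part or all of which may be technical. Arrays are named by group and replicate letter, as in L-GMP A.

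Ligands of the TNF superfamily act on paired receptors at the cell surface, and the receptors recruit TRAF adaptors or, through a death domain, the machinery of cell death. TRAF proteins and the ubiquitin ligases of the BIR family activate the IKK kinases, which mark IkB proteins for destruction and so release NF-kB dimers into the nucleus. NF-kB in turn induces several of its own inhibitors, among them Nfkbia and Tnfaip3, and in myeloid progenitors the pathway is known for its part in inflammation, emergency blood formation and cell survival.

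Differences are given as L-GMP minus GMP on the log2 intensity scale, so that 1 stands for a doubling. A gene is said to have risen or fallen where limma's adjusted p, taken over all 18193 genes, was under 0.05, and group values are means ± SD over 4 arrays. A member is called dim where its mean over all arrays lay below the lowest array median of 5.24. Levels of different probe sets are not comparable with each other, so only differences between arrays are described.

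In L-GMPs 5 of the 68 members rose and 5 fell. Those that rose were the NF-kB inhibitor Nfkbia, its relative Nfkbil1, the BAFF and APRIL receptor Tnfrsf13b, the ubiquitin ligase Birc3 and the immune regulator Tnfaip8l2. Those that fell were the death ligand Tnfsf10, the receptors Tnfrsf1b, Tnfrsf21 and Tnfrsf23, and the antisense RNA Tnfsf13os. In RNA of bulk sorted cells, fewer cells of a type and less RNA per cell cannot be told apart.

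The members were called at 14.7%, beside 12.1% of all genes tested, which is near the background. The same holds by direction: 5 of 68 members rose beside 4.78% of all genes, and 5 of 68 fell beside 7.27%. By role, 7.69% of the ligands, 18.2% of the receptors and 20% of the BIR genes were called. For the IkB genes with their relative it was 33.3%, for the Tnfaip genes 14.3%, and for the TRAF role and the subunits 0%. A single gene moves such shares, and they were not tested. In limma 25 members and 4773 of all 18193 genes had an unadjusted p under 0.05. The groups did not overlap in 16 members, or 23.5%, beside 18.2% of all genes. The median change of the members was 0.04, beside 0.01 over all genes. In 53 members the difference was smaller than 0.5 in either direction, and in 3 it reached 1. Dim members numbered 25, and in 5 of these both groups lay near the floor of the arrays.

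The split between members that rose and fell depended on how the arrays were scaled. With every array centred on its median, 11 members rose and 3 fell, or 20.6% beside 17.0% of all genes. With quantile normalization 8 rose and 6 fell, or 20.6% beside 13.9% of all genes. Over all genes, 39.7% of the calls were higher in L-GMPs as deposited, 70.1% after median centring and 49.5% after quantile normalization. Median centring moved the median change of all genes from 0.01 to 0.15, and the median of the members moved with it from 0.04 to 0.18. The members Nfkbia, Nfkbil1, Birc3, Tnfrsf13b and Tnfaip8l2 were higher and Tnfsf10, Tnfrsf1b and Tnfsf13os lower, past the threshold, under all 3 scalings. Without L-GMP B 17 members passed the threshold, 9 higher and 8 lower, which was 25% beside 12.1% of all genes. Without GMP B 6 passed, or 8.82% beside 7.76% of all genes. Leaving out an array that is extreme in a gene moves the difference of that gene by construction, so a call gained in that way is given as a value only.

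**Figure D1:**
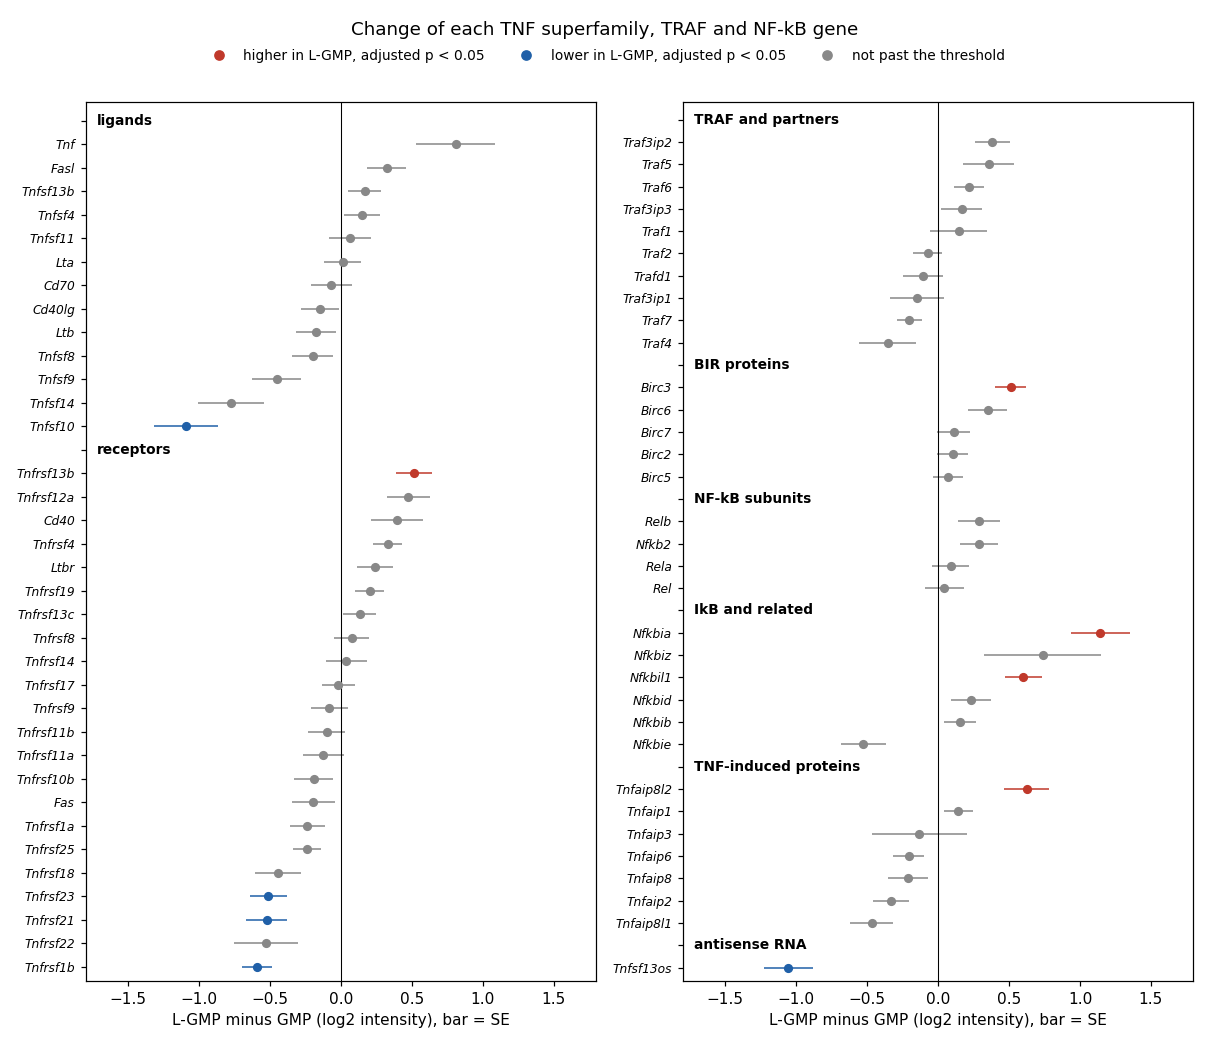
Each row is 1 of the 68 members, grouped by role and sorted by its difference, and the horizontal axis gives L-GMP minus GMP in log2 intensity with the standard error as a bar. The 5 red points rose, from 0.51 to 1.14, the 5 blue points fell, from -0.51 to -1.09, and most grey points lie within 0.5 of the line at 0.

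Markers of the sorted population were checked once for the series. All 8 markers of granulocyte-macrophage progenitors lay above the array medians in both groups, but 4 of them (Mpo, Elane, Prtn3 and Kit) were lower in L-GMPs, and their summed intensity was 25305.7 to 30597.2 in L-GMPs against 38943.1 to 42933.6 in GMPs. Monocyte and macrophage markers rose in 5 of 8 genes, with sums of 4855.8 to 8560.5 against 3084.3 to 3538.5, while Csf1r differed by -0.24 and C1qa lay near the floor in both groups. Eosinophil, basophil and mast cell markers fell in 7 of 9 genes, with sums of 643.5 to 1530.8 against 4458.5 to 11007.5. Megakaryocyte markers fell in 4 of 7 genes. Beside these counts, 4.78% of all genes rose and 7.27% fell. No T and NK cell marker of 8 and no B cell marker of 6 passed the threshold in limma (0 and 1 had an unadjusted p under 0.05), and 1 of 7 stromal and endothelial markers, Pecam1, rose. These lists moved with the same contrast as the members, and their part in the results was not tested.

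Among the 13 ligands, Tnfsf10 fell and none rose. Tnfsf10 encodes TRAIL, which triggers death receptors. Its log2 intensity was 5.45, 6.47, 5.39 and 5.32 in arrays A to D of the L-GMPs and 6.58, 6.84, 6.72 and 6.84 in arrays A to D of the GMPs. Every L-GMP array lay below every GMP array, and replicate B came close to the GMP range while the other 3 lay more than 1 below it. The group means were 5.66 ± 0.54 and 6.75 ± 0.12, a difference of -1.09 (SE 0.23, adjusted p = 0.0109). Without L-GMP B the difference was -1.36.

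Tnf itself was 5.95, 5.23, 6.53 and 5.58 in L-GMPs and 4.61, 5.13, 4.75 and 5.57 in GMPs. The highest GMP array, replicate D, lay above L-GMP B, so the groups overlapped. The difference of 0.81 (SE 0.28, adjusted p = 0.0894) did not pass the threshold. It passed without L-GMP B, where it was 1.01 (adjusted p = 0.0323), after median centring (0.95, adjusted p = 0.0394) and after quantile normalization (0.95, adjusted p = 0.0441).

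Tnfsf14, or LIGHT, a ligand of the lymphotoxin beta receptor, had the opposite sign, at 6.65, 7.02, 6.70 and 5.78 in L-GMPs and 7.13, 7.49, 7.16 and 7.46 in GMPs. The groups did not overlap, but replicate D of the L-GMPs stood far below the other 3 and the difference of -0.77 had an adjusted p of 0.0533. Without that array it was -0.52 (adjusted p = 0.0479), and without L-GMP B it was -0.94 (adjusted p = 0.0193). In all, the difference passed under 6 of 18 alternatives. The other probe set of Tnfsf14 differed by -0.19 (adjusted p = 0.443).

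The other 10 ligands differed by between -0.45 (Tnfsf9, which costimulates T cells) and 0.32 (Fasl, the ligand of Fas), and none passed. In 4 of them, Fasl included, both groups lay near the floor. Of the 13 ligands 9 were dim, among them Lta, Ltb, Cd70, Cd40lg, Tnfsf4, Tnfsf8 and Tnfsf11, and the B cell survival factor Tnfsf13b differed by 0.17. The median over the ligands was -0.07 as deposited and 0.07 after median centring.

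The RNA annotated as Tnfsf13os, which lies opposite the APRIL gene Tnfsf13, was 5.32, 4.92, 5.0 and 4.41 in L-GMPs and 5.90, 6.05, 5.86 and 6.07 in GMPs. All L-GMP arrays lay below all GMP arrays, and L-GMP D was the lowest. The difference was -1.06 (SE 0.17, adjusted p = 0.00267). The other probe set of this RNA differed by 0.20 and did not pass, and the mean of both differed by -0.43 (adjusted p = 0.0396). The labels name an assay that labels the sense strand, whereas the probe sets are those of a 3' expression array, so signal of this RNA and of its sense partner cannot be told apart here.

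**Figure D2:**
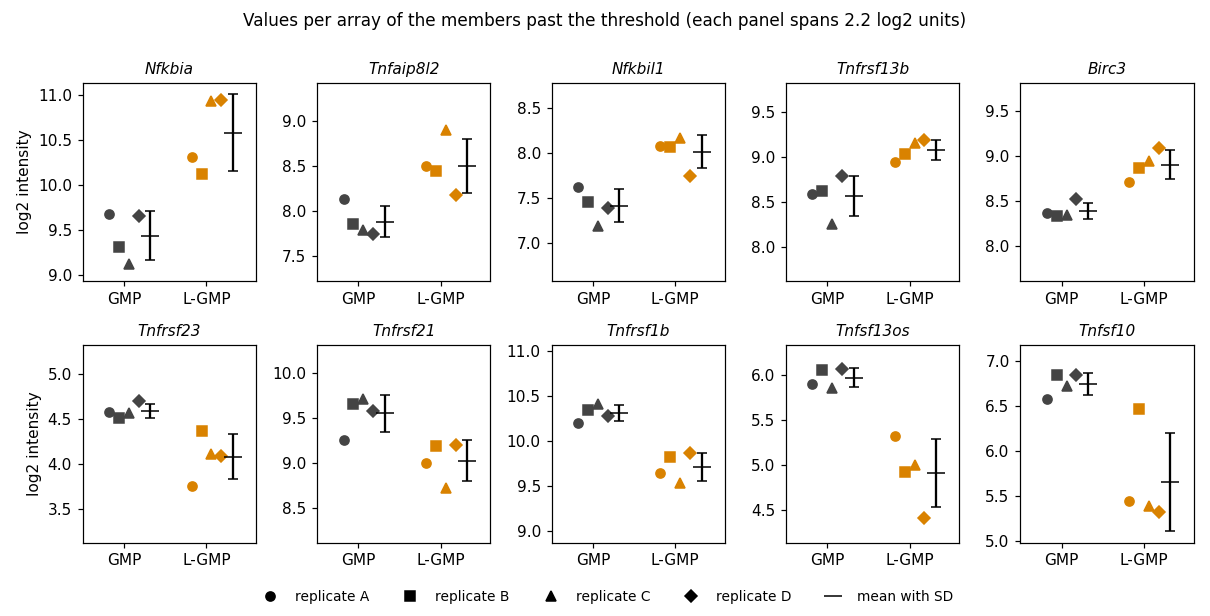
Log2 intensity of each array for the 10 members past the threshold, with GMP arrays in grey and L-GMP arrays in orange, a marker shape per replicate letter and the group mean with SD beside the points. Every panel spans the same 2.2 log2 units, and in all 10 panels the groups do not overlap, with L-GMP B of Tnfsf10 at 6.47 close to the GMP arrays. The lack of overlap rests on the same values as the calls and is no further support for them. Over all genes 2193 were called, and the groups did not overlap in 3318, of which 1275 were not called.

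Of the 22 receptors, Tnfrsf13b rose and Tnfrsf1b, Tnfrsf21 and Tnfrsf23 fell. Tnfrsf13b encodes TACI, a receptor of the B cell factors BAFF and APRIL. It was 8.94, 9.03, 9.15 and 9.18 in L-GMPs and 8.59, 8.62, 8.25 and 8.78 in GMPs. All L-GMP arrays exceeded all GMP arrays, with the lowest at 8.94 and the highest GMP array, replicate D, at 8.78. The difference was 0.51 (SE 0.13, adjusted p = 0.0238). It was lost, at an adjusted p of 0.0538 to 0.0619, when any of the arrays L-GMP C, L-GMP D, GMP B and GMP C was left out. The other receptors of this axis did not pass: Tnfrsf13c, the BAFF receptor, differed by 0.13 and Tnfrsf17, which is dim, by -0.02.

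Tnfrsf1b, or TNFR2, a TNF receptor without a death domain, was 9.65, 9.82, 9.54 and 9.87 in L-GMPs and 10.20, 10.35, 10.41 and 10.28 in GMPs. The highest L-GMP array lay 0.33 below the lowest GMP array. The difference was -0.59 (SE 0.11, adjusted p = 0.00533). The death domain receptor for the same ligand, Tnfrsf1a, was 8.55, 8.22, 8.55 and 8.34 against 8.78, 8.41, 8.79 and 8.64. Its groups overlapped and its difference of -0.24 (adjusted p = 0.254) did not pass. Whether the changes of these receptors differ from each other was not tested.

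Tnfrsf21, or death receptor 6, was 9.0, 9.19, 8.72 and 9.21 in L-GMPs and 9.26, 9.66, 9.71 and 9.58 in GMPs. Its groups came within 0.05 of each other, and the difference was -0.52 (SE 0.14, adjusted p = 0.0377). Leaving out any of the arrays L-GMP A, L-GMP C, GMP B, GMP C and GMP D ended this call, with adjusted p of 0.0865 to 0.107, and median centring ended it too. Its other probe set differed by -0.53 (adjusted p = 0.0102).

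Tnfrsf23 is a decoy receptor of TRAIL in the mouse. It is dim, at 3.75, 4.36, 4.12 and 4.09 in L-GMPs against 4.58, 4.51, 4.57 and 4.70 in GMPs, and its 4 GMP arrays lie close together. Its difference of -0.51 (SE 0.13, adjusted p = 0.0284) was lost on leaving out any single array other than L-GMP B and GMP A (adjusted p 0.0541 to 0.0832) and after median centring. The neighbouring decoy receptor gene Tnfrsf22 differed by -0.53 (SE 0.23, adjusted p = 0.163). Its L-GMP arrays ranged from 6.15 to 7.34 and its GMP arrays from 7.08 to 7.55, so the groups overlapped. Without L-GMP B its difference was -0.73 (adjusted p = 0.0285).

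Tnfsf10 and the 4 receptors that bind it (Tnfrsf10b, Tnfrsf11b, Tnfrsf22 and Tnfrsf23) all had negative differences as deposited, from -0.10 to -1.09, of which 2 passed. That is 40% called beside 12.1% of all genes, and 8709 of all 18193 genes had negative differences. Tnfrsf10b, Tnfrsf11b and Tnfrsf23 are dim, and whether so small a set departs from the background was not tested. After median centring Tnfrsf11b turned to 0.04. The death receptors Fas (-0.20), Tnfrsf10b (-0.19) and Tnfrsf25 (-0.24), all dim, did not pass in the probe sets used. The other probe set of Tnfrsf10b differed by -1.03 (adjusted p = 0.00539).

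The remaining receptors differed by at most 0.48. Tnfrsf12a, the receptor of TWEAK, was 6.42, 6.27, 6.90 and 6.75 against 6.0, 6.15, 5.98 and 6.31. Replicate D of the GMPs lay just above replicate B of the L-GMPs, and the difference of 0.48 had an adjusted p of 0.0657. The T cell costimulatory receptor genes Tnfrsf4 and Tnfrsf18, which are adjacent in the genome, differed by 0.33 (adjusted p = 0.0597) and -0.44 (adjusted p = 0.107). Cd40, the receptor of T cell help on antigen-presenting cells, differed by 0.40 (adjusted p = 0.199), and Ltbr, which signals to the noncanonical NF-kB pathway, by 0.24 (adjusted p = 0.263). Of the 22 receptors 11 were dim, and the median change over all 22 was -0.09 as deposited and 0.05 after median centring.

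None of the 10 genes of TRAF proteins and their partners passed the threshold. In limma 2 of them, beside 4773 of all 18193 genes, had an unadjusted p under 0.05. The 6 TRAF genes measured differed by -0.36 for Traf4, -0.20 for Traf7, -0.08 for Traf2, 0.15 for Traf1, 0.22 for Traf6 and 0.36 for Traf5. Of these, Traf4 and Traf1 are dim. Other probe sets differed by -0.61 for Traf4, 0.38 for Traf1, -0.01 for Traf5 and -0.13 to 0.36 for Traf6, and none passed. Traf2, the adaptor that carries the BIR ligases to TNF receptors, was 7.12, 7.21, 6.96 and 7.17 in L-GMPs and 7.17, 7.09, 7.29 and 7.21 in GMPs. Its arrays of both groups lay within 0.33 of each other. Traf6, which acts below CD40 and the Toll-like receptors, was 8.29, 8.21, 8.29 and 8.61 against 8.18, 8.12, 8.13 and 8.10, so its groups did not overlap, although the adjusted p was 0.238. Traf7 was likewise without overlap, with all L-GMP arrays lower (6.14 to 6.26 against 6.37 to 6.44, adjusted p = 0.166).

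Among the partners, Traf3ip2, the Act1 adaptor of interleukin-17 receptors, had the largest difference, 0.38 (SE 0.12, adjusted p = 0.0689). Its L-GMP arrays ranged from 7.21 to 7.68 and its GMP arrays from 6.92 to 7.22. Trafd1, a zinc finger protein known as a brake on Toll-like receptor signals, differed by -0.11, Traf3ip1 by -0.15 and Traf3ip3 by 0.17. The median over the 10 genes was 0.04.

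Of the 5 BIR genes, Birc3 rose. It encodes cIAP2, a ubiquitin ligase that binds TRAF2 and is itself a known NF-kB target. Its values were 8.71, 8.87, 8.95 and 9.09 in L-GMPs and 8.37, 8.33, 8.35 and 8.52 in GMPs. The groups did not overlap, with 0.19 between the highest GMP array and the lowest L-GMP array, and the 4 GMP arrays lay within 0.19 of each other. The difference was 0.51 (SE 0.11, adjusted p = 0.0121), and it passed under all 18 alternatives. The other probe set of Birc3 differed by 0.30 and did not pass.

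The adjacent gene Birc2, which encodes the closely related cIAP1, was 8.57, 8.74, 8.69 and 8.76 in L-GMPs and 8.50, 8.43, 8.61 and 8.81 in GMPs. Its groups overlapped and the difference was 0.10 (SE 0.11, adjusted p = 0.604). Birc5, the mitotic protein survivin, differed by 0.07, Birc7 by 0.11 and Birc6, a giant ubiquitin-conjugating enzyme, by 0.35 (adjusted p = 0.135).

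The 4 NF-kB subunit genes measured did not pass the threshold, and none had an unadjusted p under 0.05. Rela, the main activating subunit of the canonical pathway, was 6.63, 6.70, 7.02 and 6.80 in L-GMPs and 6.69, 6.97, 6.55 and 6.59 in GMPs, a difference of 0.09 (SE 0.13, adjusted p = 0.723). Rel, the c-Rel subunit of blood cells, was 6.88, 6.61, 7.13 and 7.20 against 6.98, 6.90, 6.78 and 6.99, a difference of 0.04 (SE 0.14, adjusted p = 0.88). In both genes the arrays of the groups were interleaved.

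The subunits of the noncanonical pathway had larger differences, which did not pass either. Whether they exceed those of Rela and Rel was not tested. Nfkb2, whose product p100 is processed to p52, was 7.06, 6.82, 7.01 and 6.98 in L-GMPs and 7.03, 6.62, 6.40 and 6.68 in GMPs, a difference of 0.29 (SE 0.13, adjusted p = 0.209). Its partner Relb, which is dim, was 4.85, 4.88, 4.86 and 4.79 against 4.47, 4.15, 4.92 and 4.70, a difference of 0.29 (SE 0.15, adjusted p = 0.259). In Nfkb2 a single GMP array, replicate A, and in Relb a single GMP array, replicate C, lay within or above the L-GMP range.

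Of the 6 genes of IkB proteins and their relative, Nfkbia and Nfkbil1 rose and none fell. That is 33.3% called beside 12.1% of all genes, in a role of 6 genes only. Nfkbia encodes IkB alpha, which holds NF-kB dimers in the cytoplasm and is quickly resynthesised as an NF-kB target. It was 10.31, 10.12, 10.93 and 10.95 in L-GMPs and 9.67, 9.30, 9.11 and 9.65 in GMPs. All L-GMP arrays exceeded all GMP arrays, with replicates C and D higher than A and B. The difference was 1.14 (SE 0.21, adjusted p = 0.00549), or 2.21-fold. It passed under all 18 alternatives, with differences of 1.02 to 1.37, and all 5 probe sets of the gene rose, by 0.99 to 1.17.

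Nfkbil1, an IkB-like gene of the major histocompatibility region, was 8.08, 8.07, 8.17 and 7.75 in L-GMPs and 7.63, 7.45, 7.19 and 7.39 in GMPs. The groups did not overlap, and the difference was 0.60 (SE 0.13, adjusted p = 0.0128). It was lost when L-GMP B and GMP D were left out together (adjusted p = 0.0658). In the genome Nfkbil1 stands next to Lta, Tnf and Ltb with no other protein-coding gene between them. Of these, Tnf differed by 0.81 (adjusted p = 0.0894). Lta, near the floor in both groups, differed by 0.01, and Ltb, which is dim, by -0.18.

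Nfkbiz, a nuclear IkB that acts as a coactivator, was 8.26, 7.62, 9.05 and 9.34 in L-GMPs and 7.34, 7.41, 7.67 and 8.90 in GMPs. Replicate D of the GMPs stood more than 1 above the other 3 and inside the L-GMP range. The difference was 0.74 (SE 0.41, adjusted p = 0.292). It passed under 1 of 18 alternatives, the removal of GMP D and L-GMP B, which are the highest GMP and the lowest L-GMP array of this gene.

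Nfkbie, or IkB epsilon, had the opposite sign, at 6.58, 6.47, 7.09 and 6.99 against 7.41, 7.41, 7.03 and 7.40. A single GMP array, replicate C, lay below the highest L-GMP array, and the difference was -0.53 (SE 0.16, adjusted p = 0.056). Its adjusted p was 0.0358 and 0.0469 when replicate C of either group was left out, and 0.0492 after quantile normalization. Nfkbib, or IkB beta, differed by 0.15 (adjusted p = 0.437) and Nfkbid, another nuclear IkB, by 0.23 (adjusted p = 0.326).

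NF-kB binds DNA at kB sites, and several members are known targets of the factor, so the promoters were searched for that motif. RefSeq promoter windows (GRCm38.p6) were found for 55 of the 68 members. The 250 bases before each start held the sequence GGNNTTTCC on either strand in 10 of these, or 18.2%, beside 5.62% of 27025 genes with a window. The wider 10-letter kB consensus, which can overlap the narrower form, was found in 28 members, or 50.9%, beside 25.6% of the same 27025 genes. Those genes were not limited to the 18193 measured in the series, so the shares rest on unlike sets and were not compared by a test. Of the 9 members past the threshold with a window, the narrower form occurred in Nfkbia and Tnfrsf13b, and it also occurred in 8 members that did not pass. A match describes these letters only and is not evidence of binding. The sequences below show the member with the largest rise in full, the other member that rose with a match, and stretches of 3 members that did not pass, each 5′ to 3′ on the strand of its gene, with the match in capitals.
Nfkbia, minus strand, chr12:55492648-55492897: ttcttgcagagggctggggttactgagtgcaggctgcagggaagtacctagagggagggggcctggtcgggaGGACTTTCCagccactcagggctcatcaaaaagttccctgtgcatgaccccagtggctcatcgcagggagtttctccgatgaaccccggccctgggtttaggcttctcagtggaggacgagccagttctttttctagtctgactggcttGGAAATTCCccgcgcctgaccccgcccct
Tnfrsf13b, plus strand, chr11:61126675-61126723: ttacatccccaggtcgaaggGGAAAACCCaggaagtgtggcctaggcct
Tnfaip3, minus strand, chr10:19015411-19015454: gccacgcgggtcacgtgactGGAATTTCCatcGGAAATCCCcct
Rel, minus strand, chr11:23771032-23771080: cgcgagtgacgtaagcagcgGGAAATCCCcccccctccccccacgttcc
Nfkb2, plus strand, chr19:46305686-46305734: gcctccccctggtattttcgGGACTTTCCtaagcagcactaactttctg

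The Nfkbia window held a match 178 to 170 bases before the start on the strand of the gene and another 29 to 21 bases before it on the opposite strand. Tnfaip3 also held 2 matches, within 24 bases of its start. Its difference between the groups was -0.13 (SE 0.34), and that of Nfkbia was 1.14 (SE 0.21). Whether a match bears on a change was not tested. Tnfrsf13b, with its match 60 to 52 bases before the start, rose by 0.51, and Rel and Nfkb2, with a match each in the stretches shown, did not pass.

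Of the 7 genes whose symbols begin with Tnfaip, Tnfaip8l2 rose. It encodes TIPE2, known as a negative regulator of immune responses. It was 8.49, 8.44, 8.90 and 8.17 in L-GMPs and 8.13, 7.86, 7.79 and 7.74 in GMPs. The groups came within 0.04 of each other, and the difference was 0.62 (SE 0.16, adjusted p = 0.0268). Without any of the arrays L-GMP A, L-GMP C, GMP B, GMP C and GMP D the call ended (adjusted p 0.0541 to 0.0809).

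Its relative Tnfaip8l1 had the opposite sign, at 5.12 to 5.72 in L-GMPs and 5.75 to 6.15 in GMPs, a difference of -0.47 (adjusted p = 0.0709). Tnfaip8, which gives the family its name, differed by -0.21 (adjusted p = 0.375). Tnfaip2 differed by -0.33 (adjusted p = 0.127) and Tnfaip1 by 0.14, and Tnfaip6, a secreted hyaluronan-binding protein, lay near the floor in both groups.

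Tnfaip3 encodes A20, the ubiquitin-editing enzyme that shuts off TNF receptor signals and, like Nfkbia, a known NF-kB target. It was 7.41, 6.69, 7.23 and 8.04 in L-GMPs and 6.86, 7.33, 7.30 and 8.40 in GMPs. Replicate D was the highest array in each group, and the groups overlapped almost fully. The difference was -0.13 (SE 0.34, adjusted p = 0.847), and its standard error was more than 1.5 times that of Nfkbia.

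The spread between arrays was then set out for 10 early response genes (Nfkbia, Nfkbiz, Tnf, Tnfaip3, Nfkbie, Birc3, Ccl3, Cxcl2, Ier3 and Gadd45b), which were chosen after their values had been seen. L-GMP B was the lowest L-GMP array in 9 of the 10, the exception being Birc3. GMP D was the highest GMP array in 7 of the 10. Over all 68 members L-GMP B was the lowest of its group in 35.3%, beside 26.0% of all genes, and GMP D the highest of its group in 35.3%, beside 27.3% of all genes.

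The deviations from the group mean in L-GMP B were -0.46 for Nfkbia, -0.95 for Nfkbiz, -0.59 for Tnf and -1.37 for the chemokine gene Ccl3. Those in GMP D were 0.22, 1.07, 0.56 and 1.07 for the same genes. RNA quality controls moved with GMP D: the difference between 3' and 5' probe sets of Gapdh was 2.74 there and 1.46 to 1.76 in the other GMP arrays, and 1.24 to 1.55 in L-GMPs. The difference of this control between the groups had a p of 0.114 by an exact 2-sided permutation test, where 0.0286 is the smallest that 4 against 4 arrays allow. Its part in the values of GMP D was not tested. Without both arrays 6 members rose and 5 fell, or 16.2% beside 8.56% of all genes. Nfkbia then differed by 1.37 and Birc3 by 0.57 (adjusted p = 0.0311), but these arrays were singled out by values of genes such as these, so that leaving them out widens the differences by construction.

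**Figure D3:**
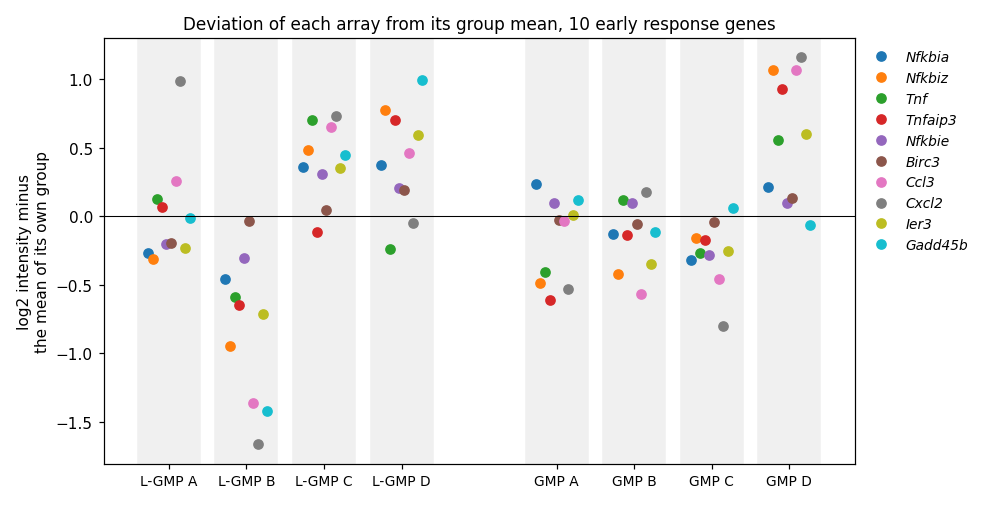
For each array, the vertical axis gives the log2 intensity of 10 early response genes minus the mean of the 4 arrays of its own group, with a colour per gene. All 10 points of L-GMP B lie below 0, down to -1.67 for Cxcl2, and most points of GMP D lie above it, up to 1.16 for the same gene.

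Of the 68 members 32 had several probe sets, with 119 probe sets in all. Of the 51 probe sets that were not chosen for a gene, 11 passed the threshold, 5 higher and 6 lower, beside 10.9% of 45037 probe sets. No member had probe sets that passed in opposite directions, and in 22 of the 32 all probe sets had the same sign. Tnfsf10 fell in its other 2 probe sets too, by 0.56 (adjusted p = 0.0062) and by 1.04 (adjusted p = 0.00396), while the other probe set of Tnfrsf1b differed by -0.16 and did not pass. With its probe sets averaged Tnfrsf1b fell by 0.38.

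In Cd40, Tnfaip8, Tnfrsf10b and Tnfrsf22 the threshold was passed only in a probe set that was not chosen. Another probe set of Cd40 was 7.53, 7.55, 7.69 and 7.42 in L-GMPs and 7.11, 6.75, 6.76 and 6.76 in GMPs, a difference of 0.70 (adjusted p = 0.004) without overlap. Another of Tnfrsf10b, the death receptor of TRAIL, was 4.35, 4.57, 3.73 and 4.41 against 5.08, 5.48, 5.45 and 5.15, a difference of -1.03 (adjusted p = 0.00539), and another of Tnfaip8 differed by -1.22 (adjusted p = 0.00492). The chosen probe sets of Tnfrsf10b and Tnfaip8 differed by -0.19 and -0.21. Another probe set of Tnfrsf22 differed by -0.51 (adjusted p = 0.0335), close to the -0.53 of the chosen one.

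**Figure D4:**
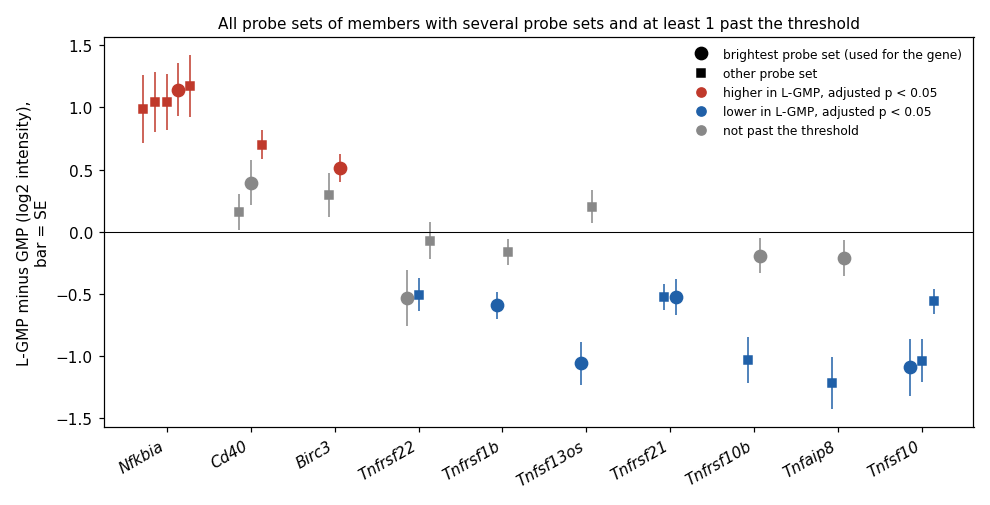
Every probe set of the 10 members that have several probe sets with at least 1 past the threshold, with L-GMP minus GMP in log2 intensity on the vertical axis, the standard error as a bar, circles for the probe set used and squares for the others. The 5 probe sets of Nfkbia lie between 0.99 and 1.17, whereas those of Tnfsf13os (-1.06 and 0.20), Tnfaip8 and Tnfrsf10b lie far apart.

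Of 86 further genes listed for the pathway under other symbols, 74 were measured, of which 7 rose and 5 fell, 16.2% beside the 12.1% of all genes. Among 10 measured genes of the IKK complex and its upstream kinases, Map3k14 rose by 0.55 (adjusted p = 0.0162). It encodes NIK, the kinase that starts the noncanonical pathway, and was 7.13, 7.20, 7.09 and 6.87 in L-GMPs against 6.75, 6.46, 6.60 and 6.31 in GMPs, without overlap. The call was lost without GMP B or GMP D (adjusted p 0.0506 to 0.0536), and with its probe sets averaged the difference was 0.27 (adjusted p = 0.0742). The kinase Ikbkb and the regulatory subunit Ikbkg differed by -0.03 and -0.06.

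None of 10 receptor adaptors and genes of cell death passed. In limma 4 of them, beside 4773 of all 18193 genes, had an unadjusted p under 0.05. The largest difference was 0.47 for Naip2, an inflammasome sensor with BIR domains (adjusted p = 0.0516), while the death domain adaptors Tradd and Fadd differed by -0.13 and -0.07 and Casp8 by -0.03. Of 14 ubiquitin and feedback regulators, Sharpin, a subunit of the linear ubiquitin ligase, rose by 0.55 (adjusted p = 0.0192). On leaving out L-GMP A, GMP B, GMP C or GMP D its adjusted p was 0.0501 to 0.0612. Of 5 CARD and IkB-related cofactors, Card14, a scaffold known from skin, rose by 0.49 (adjusted p = 0.0237), and lost the call on leaving out L-GMP C, L-GMP D, GMP B or GMP C (adjusted p 0.0505 to 0.0716).

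Of 7 superfamily members outside the symbols, Cd27 fell and Ngfr rose, or 28.6% called beside 12.1% of all genes. Cd27, a receptor of lymphocytes and early progenitors, was 8.90, 9.33, 8.26 and 9.84 in L-GMPs against 10.32, 10.18, 10.01 and 9.76 in GMPs. The groups overlapped through replicate D of both, and the difference was -0.99 (adjusted p = 0.0465). Ngfr, the low-affinity neurotrophin receptor, is dim and differed by 0.41 (adjusted p = 0.0416). Cd27 lost its call without L-GMP A or L-GMP C or any single GMP array (adjusted p 0.0687 to 0.116), and Ngfr without any single array other than GMP B (adjusted p 0.0527 to 0.109). With its probe sets averaged Ngfr differed by 0.15 (adjusted p = 0.232), and it also lost the call with a trended robust prior and with array weights. Cd27 lost its call too after median centring (adjusted p = 0.0564), in the fit of every probe set and with a trended robust prior.

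Of 28 reported target genes of NF-kB, 3 rose and 4 fell, or 25% beside 12.1% of all genes. Their median change was -0.02. The macrophage chemokine gene Ccl3 was 9.90, 8.28, 10.30 and 10.11 in L-GMPs and 7.71, 7.17, 7.28 and 8.81 in GMPs. GMP D exceeded L-GMP B, and the difference was 1.90 (SE 0.46, adjusted p = 0.0224). It lost the call on leaving out L-GMP A, L-GMP C, L-GMP D, GMP B or GMP C (adjusted p 0.0549 to 0.0715) and with a trended robust prior. Cxcl2, a neutrophil chemokine, was 6.16, 3.51, 5.91 and 5.13 in L-GMPs and 2.74, 3.45, 2.47 and 4.43 in GMPs, whose mean lay near the floor, so that the size of its difference is not given. The adjusted p was 0.0537. Cxcl2 passed under 7 of 17 alternatives, among them median centring (adjusted p = 0.0305) and quantile normalization (adjusted p = 0.0454). It also passed without L-GMP B (adjusted p = 0.00395) or GMP D (adjusted p = 0.0375), the lowest L-GMP and the highest GMP array of this gene.

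Clec4e, a macrophage receptor of fungal and bacterial glycolipids, rose by 1.13 (adjusted p = 0.01). Its L-GMP arrays ranged from 7.75 to 8.23 and its GMP arrays from 6.42 to 7.56. Ccl2, a monocyte chemokine, rose as well, by 0.52. Rises of Ccl3, Clec4e and Ccl2 moved with the monocyte and macrophage markers given above, and the part of those cells was not tested.

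Vcam1, an adhesion molecule, fell by 1.66 (adjusted p = 0.0073), from 6.62 to 7.34 over the GMP arrays to 4.69 to 6.31 over the L-GMP arrays. Csf1, the macrophage growth factor, fell by 1.14 (adjusted p = 0.0159), from 7.01 to 7.92 over the GMP arrays to 5.52 to 6.55. With its probe sets averaged, Csf1 fell by 0.50. The transcription factor gene Irf1 fell by 0.54. The cytokine gene Il6, the fourth to pass in this direction, lay near the floor in both groups, so that no size is given for it. Calls of Irf1 were lost on leaving out L-GMP A, GMP B or GMP D (adjusted p 0.0536 to 0.0637), and those of Ccl2 on leaving out L-GMP A, L-GMP C, GMP B or GMP C (adjusted p 0.0608 to 0.0796).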

How the data were processed

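RNA of 8 samples, 4 of L-GMPs and 4 of GMPs, was hybridised to 1 array each, and groups were taken from the sample titles. Per the submitters' processing notes, which give no version, the authors used RMA. The deposited values run from 3.54 to 29746.73 and were read as linear intensities, and 0 columns were unused. The deposited intensities were turned into log2 values with no further scaling. Of 45101 probe sets, 64 controls were left out, and 34945 had a single gene symbol in the platform annotation, 932 several and 9160 none. Where a gene had several probe sets, the brightest by mean log2 over the 8 arrays stood for it. The number of arrays limits the precision, and the labelling assay named in the labels is not that of a 3' expression array, so the strand and position of the target are unknown.

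The groups were compared with limma 3.58.1 in R 4.3.3 (lmFit and eBayes on group, 2-sided, Benjamini-Hochberg over 18193 genes), and a fit of all 45037 probe sets gave the values of second probe sets. On simulated data it recovered 80% of 100 genes changed by 1 and 99% of 100 changed by 2. The alternatives were median centring, quantile normalization, leaving out the dimmest 25% or 50% of genes, averaging probe sets per gene, fitting all probe sets, a prior with trend and robust fitting, weighted arrays, a block for the letters, each array left out, and L-GMP B with GMP D left out.

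Members past the threshold, the subunits, IkB and TRAF genes, the brightest member of a role, the largest change of a role without calls and up to 4 genes per pathway list were named by rule. Other genes named were picked after their values were seen. Members and lists were chosen with earlier results of these data known. Promoter sequences are from RefSeq (GRCm38.p6), upstream bases only. No build is named for the probe sets, so the coordinates describe the promoters alone.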

Additional observations from a re-analysis of the deposited data

Results flagged for a closer look

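In 6 of 136 groups of 4 arrays a single array stood apart from the other 3 by Dixon's test, where chance gives about 1 in 20 groups. L-GMP replicate B was that array for Tnfsf10, at 6.47 where the others lay at 5.32 to 5.45, and for Birc7, at 4.66 where the others lay at 5.03 to 5.10. L-GMP replicate A was that array for Tnfaip8l1, at 5.12 where the others lay at 5.63 to 5.72. Among the GMPs it was replicate A for Tnfaip8 (10.48, the others 10.93 to 11.01), replicate C for Nfkbie (7.03, the others 7.40 to 7.41) and replicate D for Birc3 (8.52, the others 8.33 to 8.37).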

How the results depend on the processing

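Of 3198 comparisons of a single gene with an alternative, 2996 kept their side of the threshold (in 169 with the sign turned, past it in neither setting), 101 lost a call, 101 gained a call and 0 called values changed sign. Nfkbia, Birc3, Tnfsf10, Tnfrsf1b and Tnfsf13os passed under every alternative in which they were measured, and 20 other members gained a call somewhere. The count of members past the threshold was 17 with probe sets averaged per gene (9 higher, 8 lower), or 25% beside 14.1% of all genes. It was also 17 with array weights (10 lower), or 25% beside 16.9% of all genes. Median centring gave 11 higher and 3 lower, and quantile normalization 8 higher. With single arrays left out the count ranged from 6 (without GMP B) to 17 (without L-GMP B). Members higher then ranged from 3, without L-GMP C or GMP B or GMP C, to 9, without L-GMP B, with 8 without GMP A. Members lower ranged from 3, without L-GMP A or GMP B or GMP D, to 8, without L-GMP B. The 12 pathway genes ranged from 5 (without GMP B) to 13 (without L-GMP B), with 7 without L-GMP A and 6 without GMP C. With the replicate block 5 members were higher and 3 lower, or 11.8% beside 9.67% of all genes. No label says whether the replicate letters pair arrays across the groups. Over all genes, deviations of same-letter arrays correlated at -0.05, -0.01, -0.07 and 0.11 for A to D, and only D correlated best with its own letter. The block moved the calls over all genes from 2193 to 1760. These values do not settle whether arrays were paired. The causes of these shifts were not tested. Low signal limits the 25 dim members.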
